A study of Mus musculus with 8 samples.

Results

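Ribosomes are assembled in the nucleolus, where RNA polymerase I transcribes the ribosomal RNA precursor, small nucleolar ribonucleoproteins (snoRNPs) guide its chemical modification, and processing factors cut and fold it into the small and large subunits. Arginine-rich dipeptide repeat proteins, which are made from the expanded repeat of C9orf72, are known to bind nucleolar proteins. The messenger RNAs of 45 such nucleolar ribosome biogenesis genes were compared here between mice with green fluorescent protein alone (GFP) and mice with GFP joined to 100 glycine-arginine repeats (GFP-GR100). Members were the rows of the deposited table that bear one of 45 listed gene symbols. All 45 were found, each in 1 row, among 43346 genes, and all 45 passed the filter on low counts that left 20987 genes. By role, 7 were genes of RNA polymerase I and its factors and 9 of the snoRNPs. The small subunit had 12 and the large subunit 14. The other 3 (Ncl, Npm1 and Ddx21) form a nucleolar scaffold and helicase group.

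The tissue was cortex and hippocampus of mice 1.5 months old, with 4 animals and 4 libraries in each genotype group. GFP 1 and 2 and GFP-GR100 1 and 2 were female, and the libraries numbered 3 and 4 were male. Both groups carried GFP from an adeno-associated virus plasmid. The sources used here do not give the promoter, the dose, the route of delivery, the strain or the share of cells that made the protein. The dissected tissue weighed 111.4 to 126.6 mg in the GFP animals and 71.9 to 85.1 mg in the GFP-GR100 animals.

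Library totals ran from 65880460 to 89113010 counts, and the members took 0.207 to 0.245% of them. The lowest count of any member in any library was 348. Values listed per group below follow the library numbers 1, 2, 3 and 4. Summed markers of excitatory neurons stood at 3795 to 4004 CPM (counts scaled to a common library total, with TMM factors) in GFP and 2968 to 4642 CPM in GFP-GR100, so the labelled tissue showed its defining neuronal genes. Of 10 microglial markers, 8 rose, and their sum was 400.3 to 563 CPM in GFP and 706.4 to 786.7 CPM in GFP-GR100. Choroid plexus markers summed to 129.3 to 366.4 CPM and 32.9 to 89.1 CPM, with 2 of 8 fallen, and 1 of 10 astrocyte markers rose and 1 of 8 oligodendrocyte precursor markers fell. All 8 oligodendrocyte markers and all 8 proliferation markers were below 0, with median log2 fold changes of -0.31 and -0.30, but none passed the test (smallest adjusted p = 0.0843 and 0.143). Oligodendrocyte markers summed to 6370 to 8350 CPM in GFP and 5271 to 8206 CPM in GFP-GR100, and proliferation markers to 44.3 to 52.5 CPM and 36.6 to 47.0 CPM. None of the 78 markers was at 0 in all libraries. In bulk tissue, fewer cells of a type and less RNA per cell cannot be told apart, and the part of these cell types in the values of the members was not tested.

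No member passed the test for a difference between GFP-GR100 and GFP. With an adjusted p under 0.05 in edgeR's quasi-likelihood test, 0 of 45 members were called higher, against 2.19% of all tested genes, and 0 of 45 were called lower, against 0.324%. DESeq2 and limma-voom also called 0 members. At an unadjusted p under 0.05, 10 members were lower, against 7.37% of all tested genes, and 0 were higher, against 8.23%. Of 11726 tested genes within the members' range of mean CPM, 1140 were lower and 678 higher at that threshold. The count of 10 was 0 without GFP 3 and GFP-GR100 4, 0 without GFP 4, 0 without GFP-GR100 2, 1 without GFP-GR100 4, 2 without GFP 3 and 4 without GFP-GR100 3. It was 6 without GFP 2, 8 without GFP 1 and 9 without GFP-GR100 1, and ran from 0 to 13 over the alternatives that kept all libraries. The smallest adjusted p was 0.215, for Cirh1a. Small differences leaned to the lower side: 38 of 45 log2 fold changes (GFP-GR100 over GFP) were below 0, compared with 54.6% of all tested genes and 64.3% of the 11726 tested genes within the members' range of mean CPM. Their median was -0.11, that of all tested genes -0.024 and that of genes in the same CPM range -0.056. Without GFP 4 the members' median was -0.046, and it was also -0.046 without GFP 3 and GFP-GR100 4. Between 29 and 40 members were below 0 under the alternatives tried.

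Precision was high enough to bound these changes. The 95% interval of the log2 fold change lay within 1.5-fold in either direction for 44 of 45 members and within 2-fold for all 45, while 13293 of 20987 tested genes had an interval within 1.5-fold. The lowest bound was a fold of 0.632, for Bop1, and the highest was 1.34, for Rrp1b. These bounds hold for the effect over both sexes together and not for the effect within 1 sex. Within males, Bop1 had a log2 fold change of -0.70, past its lower bound of -0.66. The median half-width of the interval was 0.206 on the log2 scale, compared with 0.28 over all tested genes. It was 0.214 over the tested genes within the members' range of mean CPM, so this precision was near that of other genes at these levels.

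**Figure D1:**
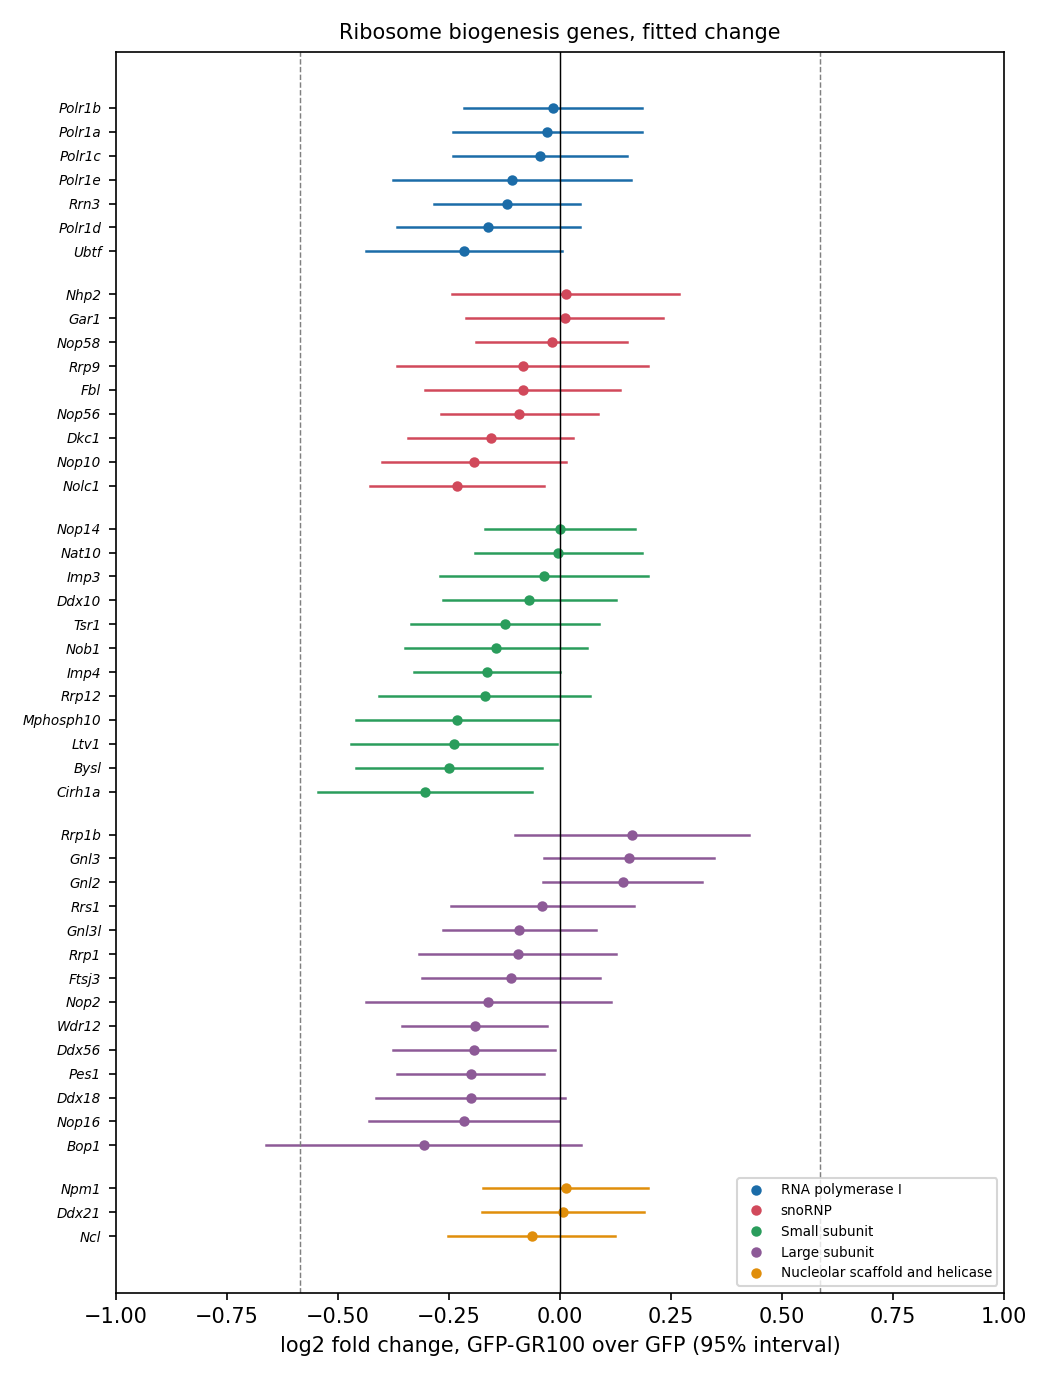
Fitted log2 fold change (GFP-GR100 against GFP) for each of the 45 members (points) with its 95% interval (lines), grouped and coloured by role. Dashed lines mark 1.5-fold in each direction. The points of 38 members lie left of 0, and only the interval of Bop1 crosses a dashed line.

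By role, the medians ran from -0.15 to 0.0076. All 12 small subunit members were below 0, with a median of -0.15, and all 7 polymerase members were below 0, with a median of -0.11. The large subunit had 11 of 14 below 0 and a median of -0.14, and the snoRNP members had 7 of 9 below 0 and a median of -0.084. Of the nucleolar scaffold and helicase group, 1 of 3 was below 0, with a median of 0.0076. The roles hold few genes each, and the differences between their medians were not tested.

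The RNA polymerase I members had GFP means between 1.63 RPKM for Polr1e and 21.6 RPKM for Ubtf (RPKM, counts per gene length and library size, allows levels to be set side by side between genes). Ubtf (chr11:102304560-102319742), the upstream binding factor that holds ribosomal DNA in its active form, measured 131, 136, 144 and 167 CPM across GFP and 136, 131, 119 and 110.4 CPM across GFP-GR100. Its GFP males were the highest libraries and its GFP-GR100 males the lowest, and the groups overlapped through the females. The groups differed by less than the test could call (log2 fold change -0.22, 95% interval -0.44 to 0.0054, adjusted p = 0.331). Polr1d (chr5:147077050-147111361), a subunit shared by polymerases I and III, measured 35.5, 32.6, 46.6 and 39.1 CPM across GFP and 31.7, 31.7, 40.9 and 32.7 CPM across GFP-GR100. GFP 3 was the highest library and the groups overlapped (log2 fold change -0.16, 95% interval -0.37 to 0.045, adjusted p = 0.427).

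Polr1a (chr6:71909053-71979356), the largest subunit of the polymerase, measured 35.7, 35.7, 24.99 and 34.2 CPM across GFP and 35.2, 33.4, 28.8 and 30.4 CPM across GFP-GR100. The groups overlapped over nearly their whole range, with GFP 3 below every other library (log2 fold change -0.028, 95% interval -0.24 to 0.18, adjusted p = 0.907). Rrn3 (chr16:13780699-13814840), the factor that recruits the polymerase to its promoter, measured 58.5, 54.04, 56.3 and 60.01 CPM across GFP and 54.7, 52.5, 51.5 and 52.00 CPM across GFP-GR100. It spanned a narrow range, with a highest library 1.17 times the lowest, and GFP 2 lay among the GFP-GR100 libraries (log2 fold change -0.12, 95% interval -0.28 to 0.045, adjusted p = 0.46). The remaining subunit genes Polr1b, Polr1c and Polr1e had log2 fold changes of -0.016, -0.045 and -0.11, with adjusted p of 0.689 or more. Polr1e shares 2319 bases with Fbxo10, which lies on the opposite strand in GENCODE release M21, and the sources used here do not say whether counting used strand.

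Among the snoRNP members, GFP means lay between 4.11 RPKM for Nop58 and 23.3 RPKM for Nop10. Fbl (chr7:28169748-28179269), the methyltransferase fibrillarin of the C/D snoRNPs, measured 18.6, 16.99, 18.1 and 17.4 CPM across GFP and 18.3, 15.6, 18.7 and 14.5 CPM across GFP-GR100. The groups overlapped, and GFP-GR100 held both the highest and the lowest library (log2 fold change -0.084, 95% interval -0.30 to 0.14, adjusted p = 0.709). Its partners Nop56 and Nop58, the core proteins of the same particles, had log2 fold changes of -0.092 (95% interval -0.27 to 0.084) and -0.019 (-0.19 to 0.15).

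Dkc1 (chrX:75095854-75109777), the pseudouridine synthase dyskerin of the H/ACA snoRNPs, measured 22.2, 21.7, 21.5 and 21.4 CPM across GFP and 20.9, 17.8, 20.4 and 18.8 CPM across GFP-GR100. All 4 GFP-GR100 libraries lay below all 4 GFP libraries, although GFP-GR100 1 was close to GFP 4, and the difference did not pass the test (log2 fold change -0.16, 95% interval -0.34 to 0.029, adjusted p = 0.391). Nop10 (chr2:112261926-112263269), the smallest protein of that particle, measured 23.9, 21.1, 32.96 and 27.4 CPM across GFP and 21.4, 18.1, 27.4 and 25.04 CPM across GFP-GR100. Its values overlapped between groups and were higher in males than in females of each group (log2 fold change -0.19, 95% interval -0.40 to 0.012, adjusted p = 0.347). The other H/ACA proteins Gar1 and Nhp2 had log2 fold changes of 0.011 and 0.013, the only 2 snoRNP members above 0.

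Nolc1 (chr19:46075863-46085528), a nucleolar phosphoprotein that acts as a chaperone of snoRNPs, measured 67.7, 65.1, 61.4 and 72.8 CPM across GFP and 64.6, 58.5, 54.6 and 50.4 CPM across GFP-GR100. GFP 3 fell within the GFP-GR100 range and the other GFP libraries lay above it (log2 fold change -0.23, 95% interval -0.43 to -0.036, adjusted p = 0.244). Rrp9 (chr9:106475963-106485424), a component of the U3 snoRNP, measured 14.1, 15.6, 21.4 and 21.5 CPM across GFP and 17.8, 17.9, 16.6 and 15.2 CPM across GFP-GR100. The 2 GFP males were the highest of all libraries, the 2 GFP females were among the 3 lowest, and the GFP-GR100 libraries lay between them or among the low ones (log2 fold change -0.084, 95% interval -0.37 to 0.20, adjusted p = 0.778).

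Small subunit members had GFP means between 3.04 RPKM for Imp4 and 25.0 RPKM for Imp3. Cirh1a (chr8:106893640-106923093), named Utp4 in newer annotations and part of the complex that joins the precursor early, measured 26.3, 24.2, 27.3 and 27.7 CPM across GFP and 25.3, 21.6, 21.7 and 17.1 CPM across GFP-GR100. GFP-GR100 4 was the lowest library and GFP-GR100 1 lay within the GFP range. The mean was 26.4 ± 1.56 CPM against 21.4 ± 3.34 CPM (SD, n = 4 in each group), and this member had the smallest p of all 45 (log2 fold change -0.30, 95% interval -0.55 to -0.064, adjusted p = 0.215). Bysl (chr17:47599331-47611492), or bystin, needed for a late step of small subunit maturation, measured 32.1, 34.5, 39.6 and 39.2 CPM across GFP and 34.2, 29.8, 30.05 and 27.9 CPM across GFP-GR100. GFP-GR100 1 exceeded GFP 1, so the groups overlapped, while both GFP males stood above all other libraries (log2 fold change -0.25, 95% interval -0.46 to -0.04, adjusted p = 0.241). Bysl shares 361 bases with Ccnd3, on the opposite strand in M21.

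Nob1 (chr8:107412486-107425051), the endonuclease that makes the mature end of 18S rRNA, measured 21.8, 23.4, 26.1 and 26.2 CPM across GFP and 22.96, 23.2, 22.3 and 19.6 CPM across GFP-GR100. The groups overlapped, with GFP-GR100 4 lowest (log2 fold change -0.14, 95% interval -0.35 to 0.06, adjusted p = 0.473). Imp4, which binds the U3 snoRNP together with Imp3 and Mphosph10, measured 25.6, 27.5, 26.3 and 26.96 CPM across GFP and 24.3, 23.6, 23.3 and 23.7 CPM across GFP-GR100. Each GFP-GR100 library lay below each GFP library, over a narrow range, without passing the test (log2 fold change -0.16, 95% interval -0.33 to -0.00024, adjusted p = 0.32). The other 8 small subunit members (Nop14, Rrp12, Imp3, Mphosph10, Ddx10, Nat10, Ltv1 and Tsr1) had log2 fold changes between -0.24 for Ltv1 and -0.00056 for Nop14. Of these, Mphosph10 (adjusted p = 0.315) and Ltv1 (adjusted p = 0.306) had an unadjusted p under 0.05, as did Cirh1a, Bysl and Imp4. Tsr1 shares 2984 bases with Srr, on the opposite strand in M21.

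In the large subunit, GFP means ran from 1.75 RPKM for Rrp1b to 151.6 RPKM for Rrp1. Bop1, Pes1 and Wdr12 form 1 complex that is needed to process the large subunit RNAs, and all of them had negative log2 fold changes. Bop1 (chr15:76452996-76477269) measured 43.7, 45.5, 54.7 and 59.9 CPM across GFP and 51.5, 43.3, 39.2 and 31.2 CPM across GFP-GR100. GFP 3 and 4 were highest and GFP-GR100 3 and 4 lowest, a spread of 1.92 times between extremes that no other member reached, and the females of both groups overlapped (log2 fold change -0.31, 95% interval -0.66 to 0.048, adjusted p = 0.377). Pes1 (chr11:3963975-3980004) measured 36.2, 37.8, 39.98 and 42.5 CPM across GFP and 34.5, 31.9, 35.3 and 34.1 CPM across GFP-GR100. Its groups did not overlap, GFP 1 being the lowest GFP library and GFP-GR100 3 the highest of the other group (log2 fold change -0.20, 95% interval -0.37 to -0.036, adjusted p = 0.233). Wdr12 (chr1:60069785-60098645) measured 40.4, 37.2, 43.5 and 43.4 CPM across GFP and 35.7, 33.2, 38.4 and 36.5 CPM across GFP-GR100. Only GFP-GR100 3 exceeded a GFP library, GFP 2 (log2 fold change -0.19, 95% interval -0.36 to -0.029, adjusted p = 0.247). Wdr12 shares 399 bases with Carf on the opposite strand in M21.

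Gnl3 (chr14:31012434-31019089), the nucleolar GTPase nucleostemin, measured 19.96, 18.8, 19.4 and 18.9 CPM across GFP and 20.98, 20.2, 24.3 and 20.3 CPM across GFP-GR100. It was the only member with all GFP-GR100 libraries above all GFP libraries, with GFP-GR100 3 the highest (log2 fold change 0.16, 95% interval -0.037 to 0.35, adjusted p = 0.411). Without GFP-GR100 3 its log2 fold change was 0.086. Its relatives, Gnl2, a GTPase of large subunit assembly, and Gnl3l, had log2 fold changes of 0.14 and -0.091. Rrp1b (chr17:32036100-32062865), a relative of the processing factor Rrp1, measured 12.4, 16.7, 11.9 and 14.2 CPM across GFP and 15.5, 16.6, 12.9 and 16.8 CPM across GFP-GR100. The groups overlapped, GFP 2 being close to the highest GFP-GR100 library, and this was the largest positive log2 fold change (log2 fold change 0.16, 95% interval -0.10 to 0.43, adjusted p = 0.53). Rrp1 itself, at 152 ± 22.4 RPKM in GFP (mean ± SD, n = 4), was the most abundant member per length, above Npm1 and Gnl3l. Its log2 fold change was -0.096 (-0.32 to 0.13). The remaining members Nop2, Nop16, Rrs1, Ftsj3, Ddx18 and Ddx56 lay between -0.22 for Nop16 and -0.04 for Rrs1. Nop16 (adjusted p = 0.318) and Ddx56 (adjusted p = 0.293) had an unadjusted p under 0.05, as did Pes1 and Wdr12, and Nolc1 was the last of the 10.

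Over all 45 members, 3 had every GFP-GR100 library below every GFP library (Dkc1, Imp4 and Pes1), against 3.03% of all tested genes. Gnl3 alone had the reverse, against 5.03%.

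The nucleolar scaffold and helicase group stood nearly level, with GFP means from 5.39 RPKM for Ddx21 to 44.1 RPKM for Npm1. Nucleolin (Ncl, chr1:86344719-86359400), a histone chaperone and RNA-binding protein of the nucleolus, measured 324, 308, 288 and 309.6 CPM across GFP and 319, 287, 308 and 263 CPM across GFP-GR100. GFP-GR100 4 was the lowest library and the groups overlapped (log2 fold change -0.064, 95% interval -0.25 to 0.12, adjusted p = 0.74). Nucleophosmin (Npm1, chr11:33152287-33163206), which forms the outer layer of the nucleolus, measured 116, 111, 131 and 122 CPM across GFP and 116, 100.1, 141 and 129.7 CPM across GFP-GR100. GFP-GR100 held both the lowest and the highest library (log2 fold change 0.013, 95% interval -0.17 to 0.20, adjusted p = 0.953). Ddx21, an RNA helicase that couples polymerase I with processing, had a log2 fold change of 0.0076 (-0.17 to 0.19). Npm1 has processed pseudogenes, and the sources used here do not say how reads shared with such copies were counted.

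**Figure D2:**
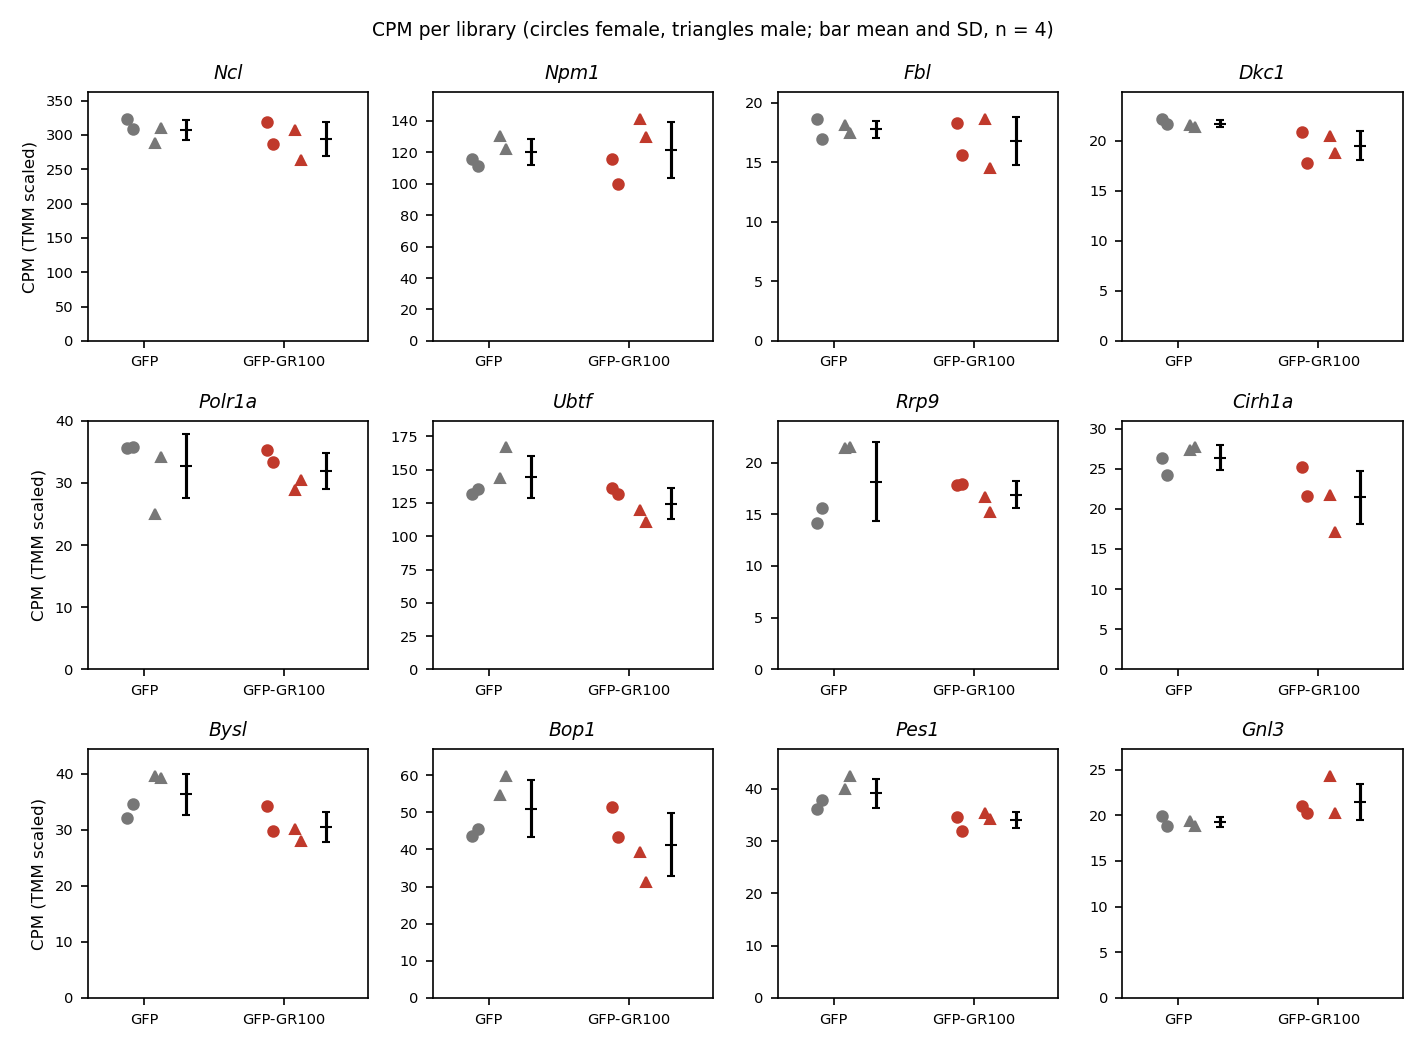
CPM of 12 members in each library (vertical axes start at 0), with GFP in grey, GFP-GR100 in red, females as circles and males as triangles. Black bars give the mean and SD of the 4 libraries. For Pes1 and Dkc1 no red point reaches the grey ones, and for Bop1, Rrp9 and Ubtf the red males lie below the grey males. The females of Bop1 and Ubtf overlap, while the red females of Rrp9 lie above the grey ones.

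The lean to lower values was larger among males than among females, although the test of that difference called no member. Fitted within each sex, 38 of 45 members were below 0 in males, with a median log2 fold change of -0.20, and 27 of 45 were below 0 in females, with a median of -0.057. The direction in females turned in other fits. Without GFP-GR100 2, which left 1 GFP-GR100 female, 12 were below 0, with a median of 0.048. On either RPKM scale 8 were below 0, with medians of 0.067 and 0.060. The RPKM values carry no TMM scaling, which moves all genes alike. The TMM factors were 0.921 and 0.981 in GFP females and 1.03 and 1.044 in GFP-GR100 females. Medians within females over all tested genes were not taken in those fits. In males 34 to 40 were below 0 in every fit run. In the main fit, with all 8 libraries and TMM scaling, the medians over all tested genes were 0.0026 in males and -0.039 in females. Over the 11726 tested genes within the members' range of mean CPM, the medians were -0.068 in males and -0.040 in females. Of those genes, 7075 were below 0 in males and 6987 in females. Within males, 6 members fell, against 3.78% of all tested genes called lower there, and within females 0 were called lower, against 0.0524%. Both GFP-GR100 males lay below both GFP males for 25 of 45 members, against 26.3% of all tested genes, and above them for 1, against 26.7%. In females, both GFP-GR100 libraries lay below both GFP libraries for 8 members, against 28.5%, and above them for 8, against 20%.

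The 6 members that fell in males came from 4 of the 5 roles. Bop1 changed most, by -0.70 ± 0.13 (SE) in males, adjusted p = 0.00851, and 0.089 ± 0.13 (SE) in females, adjusted p = 0.859. Cirh1a had -0.50 ± 0.13 (SE) in males, adjusted p = 0.034, and -0.11 ± 0.13 (SE) in females. Nop2, an RNA methyltransferase of the large subunit, had -0.47 ± 0.12 (SE) in males, adjusted p = 0.0342, and 0.15 ± 0.12 (SE) in females, adjusted p = 0.734. Bysl, Ubtf and Rrp9 fell in males by 0.44, 0.43 and 0.43 on the log2 scale, with adjusted p of 0.0269, 0.0281 and 0.0364. Each sex and group held 2 libraries, and the model took their spread from all 8.

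The test of the difference between the sexes called none of the members. The sex by group term (male minus female effect) had 0 of 45 called, against 0.0524% of all tested genes. It was below 0 for 37 members, with a median of -0.14 compared with 0.037 over all tested genes. Within the members' range of mean CPM, it was below 0 for 6377 of 11726 tested genes, with a median of -0.032. At an unadjusted p under 0.05, 7 members had a term below 0, against 7.06% of all tested genes. At that threshold 0 members had one above 0, against 9.36%. In the same CPM range, 1230 of 11726 genes had a term below 0 at that threshold and 997 had one above 0. Bop1 had -0.79 ± 0.18 (SE), adjusted p = 0.101. Rrp9 had -0.70 ± 0.16 (SE), adjusted p = 0.104. Nop2 followed with -0.62 ± 0.17 (SE), adjusted p = 0.136. DESeq2 called the term for 2 members, Bop1 and Rrp9, against 2.76% of all tested genes. The fit without a filter on low counts called it for 3, Bop1, Rrp9 and Nop2, against 4.22%. Both fits called far more genes overall than the 0.0524% above.

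**Figure D3:**
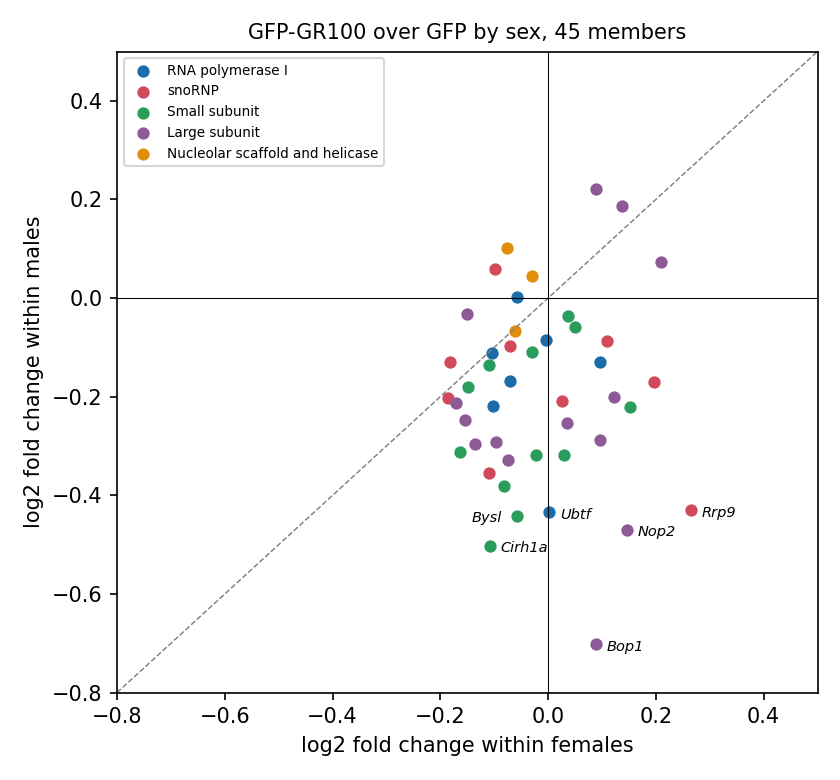
Log2 fold change (GFP-GR100 against GFP) within females (horizontal) and within males (vertical) for the 45 members, coloured by role, with the line of equal effects dashed. The 6 named members are those called lower within males, and they lie below the dashed line. Some members that were not called lie about as far below it. The male minus female effect was -0.38 for Rrp1 and -0.37 for Imp3, neither called, and -0.38 for Bysl.

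Counts at rRNA loci moved with the same split of sex and group. Yam1 (chr17:39846958-39848788) and AY036118 (chr17:39847526-39848829) overlap, so their values are not separate results. These genes and Lars2 on chr9 hold sequence that matches ribosomal RNA. Together they took 11.4, 6.74, 3.80 and 3.54% of counts across GFP and 3.20, 2.76, 8.77 and 9.83% across GFP-GR100. The share was therefore high in GFP females and GFP-GR100 males and low in the other 4 libraries. The sex by group term was called for each of these genes. It was 3.11 ± 0.37 (SE), adjusted p = 0.0479 for Yam1 and 3.10 ± 0.34 (SE), adjusted p = 0.0258 for AY036118. For Lars2 it was 2.65 ± 0.19 (SE), adjusted p = 9.27e-05. The library preparation used a total RNA kit, and these counts were not read as a measure of rRNA synthesis.

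With this share as a covariate, 0 members passed the test within males, while 38 of 45 were still below 0 there, with a median of -0.18 compared with -0.20 before. The sex by group term for Bop1 was -0.52 and that for Rrp9 -0.28, neither with an unadjusted p under 0.05. In that fit, 0.00476% of all tested genes were called lower within males, so calls were lost over the whole table. With Yam1, AY036118 and Lars2 left out of the totals, 6 members were called lower within males, as before. GFP 3 and GFP-GR100 4 are the 2 libraries that an earlier look at these data had set apart. Without them each group kept 1 male, and the members' median log2 fold change within males was -0.18. Leaving out GFP-GR100 1 or GFP-GR100 2 alone, which are females, brought the count of members called lower within males to 1 (Bop1). In each of these fits 1.33% of all tested genes were called lower there. Leaving out GFP 4 or GFP-GR100 4 left 1 male in that group, with members' medians within males of -0.18 and -0.17. How much of the difference between males goes with the rRNA share cannot be told apart from genotype and sex with 8 libraries.

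The level of the members in each library was summarised as the median, over members, of log2 CPM less the gene's mean over the 8 libraries. It was -0.0084, 0.0046, 0.071 and 0.12 across GFP and 0.037, -0.065, -0.050 and -0.13 across GFP-GR100. GFP 4 was the highest library and GFP-GR100 4 the lowest, and the groups overlapped because GFP-GR100 1 exceeded GFP 1 and 2. Small subunit members spanned the widest range, from 0.17 in GFP 4 to -0.24 in GFP-GR100 4. Over all tested genes the same measure stayed between -0.0076 and 0.012.

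**Figure D4:**
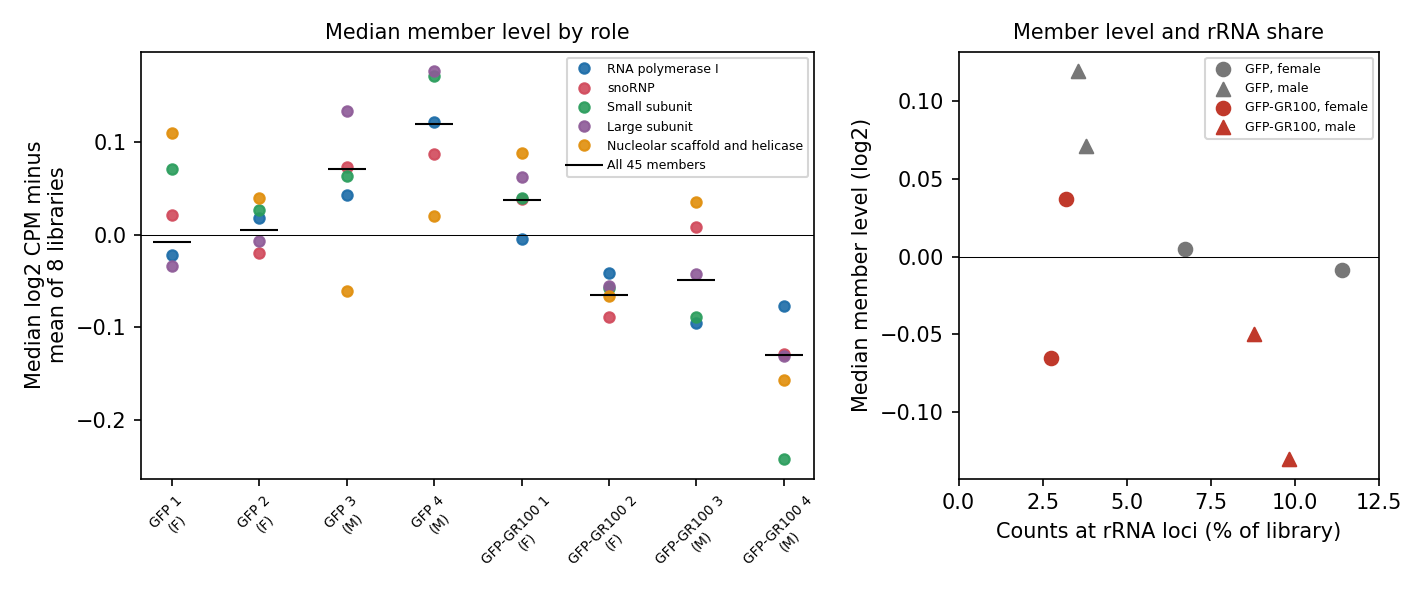
Left, median of log2 CPM less the 8-library mean in each library, for each role (coloured points) and all members (black bars). Right, the same median over all members against the percentage of counts at the rRNA loci. GFP 4 (0.12) and GFP-GR100 4 (-0.13) are the extremes, and the low-share libraries include members' levels from -0.065 to 0.12.

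Short and long members did not follow the same order of libraries. With the members divided at their median listed length of 3486 bases, GFP 3 stood at 0.17 for the 23 shorter members and -0.0090 for the 22 longer ones. All tested genes divided at the same length gave 0.12 and -0.11 in GFP 3. GFP-GR100 4 was low for both lengths of members, at -0.14 and -0.089, while all tested genes there gave 0.033 and -0.016. Among the shortest members, Nop10 (1109 bases) and Imp3 (924 bases) were higher in males than in females, by 0.42 and 0.43 on the log2 scale with adjusted p of 0.0428 and 0.0486. They were the only 2 members called for sex in that direction, against 1.84% of all tested genes, and 0 were called lower in males, against 2.34%. For both of them GFP 3 was the highest library.

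**Figure D5:**
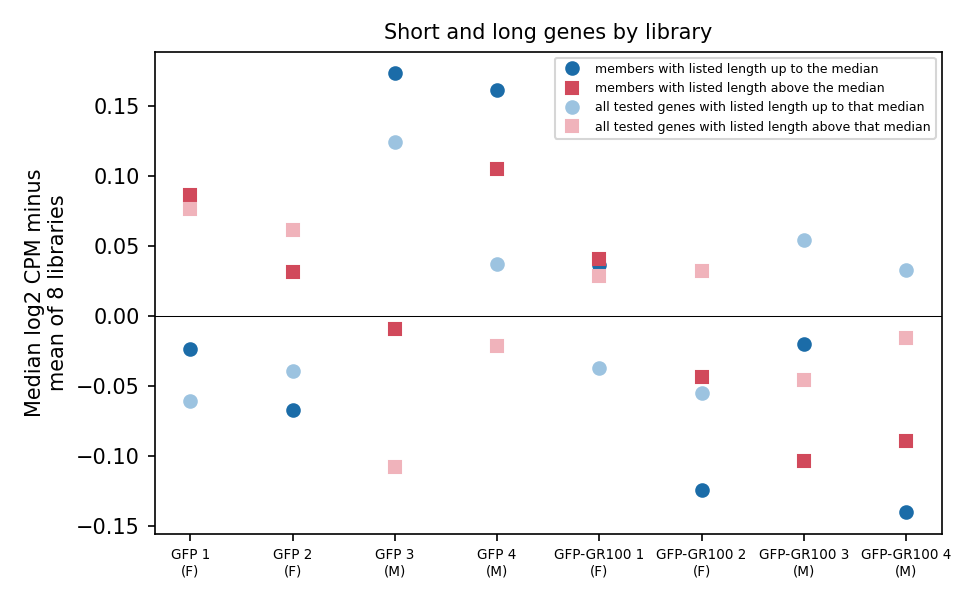
Median of log2 CPM less the 8-library mean for members (dark) and all tested genes (pale), divided at a listed length of 3486 bases into shorter (circles) and longer (squares). Circles and squares are farthest apart in GFP 3 (0.17 and -0.0090 for members, 0.12 and -0.11 for all tested genes).

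Other genes of the pathway, from lists of the same roles and of related genes, also had no gene called. Further polymerase I subunits and factors had 0 of 13 called and a median of -0.088. Taf1d, a subunit of the promoter selectivity factor, had the smallest p of that list, at 7.50 ± 0.820 CPM against 9.06 ± 1.08 CPM (SD, n = 4), with log2 fold change 0.27, 95% interval -0.00028 to 0.55, adjusted p = 0.321. Regulators of ribosomal DNA chromatin had 0 of 8 called and a median of -0.0033, the smallest p being that of the histone demethylase Phf8 (-0.16, adjusted p = 0.403).

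Further snoRNP proteins and assembly factors had 0 of 11 called and a median of -0.19. Nhp2l1, the protein that binds the kink-turn of C/D and U3 RNAs, had log2 fold change -0.24, 95% interval -0.42 to -0.057, adjusted p = 0.196. Additional small subunit factors had 0 of 46 called and a median of -0.11, with Rrp8 at -0.28 (adjusted p = 0.244). Additional large subunit factors had 0 of 46 called and a median of -0.10, with Wdr74 at -0.28 (adjusted p = 0.215). The exosome and RNase MRP list had 0 of 25 called and a median of -0.078, and its member of smallest p was the helicase Skiv2l2 (-0.23, adjusted p = 0.246). Noncoding hosts of snoRNAs went the other way in median, at 0.13, with 0 of 11 tested genes called, of 16 listed, and Snhg12 at 0.30 (adjusted p = 0.213).

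Small nucleolar RNAs themselves were thinly counted. Of 1525 annotated snoRNA genes, 194 were tested, 0 were called in either direction, and their median log2 fold change was 0.17. Inside 6 members (Nop58, Ncl, Nop56, Tsr1, Gnl3 and Dkc1) lie 18 of them, of which 8 were tested and 0 had an unadjusted p under 0.05. Of these 8, 5 had a log2 fold change above 0 and 3 below it, with a median of 0.11, and 69.6% of all tested snoRNA genes were above 0. Snord91a, within Tsr1, had the most counts, 197 to 372 per library, and a log2 fold change of -0.25 ± 0.17 (SE). A short RNA lying in an intron cannot be told apart from its unspliced host in these counts.

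All 45 members are annotated as protein-coding in M21, on 18 chromosomes, and 29 have the same start and end there as in the deposited mm10 table. RefSeq promoters (build GRCm38.p6) were found for 38 members. The 250 bases before the start were searched on both strands for CACGTG, the E-box bound by Myc and its partners, for TATAAA and for CCAAT. The E-box was present in 3 of 38 (7.9%), namely those of Rrn3, Imp4 and Nop2, against 6% of 27025 promoters in the table. TATAAA was found in 2 (5.3%), Dkc1 and Pes1, against 13%, and CCAAT in 13 (34.2%) against 34.5%. Median GC content was 57.2% against 52%. A match is a description of the letters and not a binding site.

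The promoters of 2 members are shown because Cirh1a and Pes1 had the smallest p among members with a promoter in the table. That of Cirh1a (chr8:106893390-106893639, plus strand) is 80.4% GC and holds none of the 3 motifs. That of Pes1 (chr11:3963725-3963974, plus strand) is 44% GC and holds TATAAA, printed in capitals, which starts 216 bases before the transcription start and thus far from the usual place of a TATA box.
Cirh1a: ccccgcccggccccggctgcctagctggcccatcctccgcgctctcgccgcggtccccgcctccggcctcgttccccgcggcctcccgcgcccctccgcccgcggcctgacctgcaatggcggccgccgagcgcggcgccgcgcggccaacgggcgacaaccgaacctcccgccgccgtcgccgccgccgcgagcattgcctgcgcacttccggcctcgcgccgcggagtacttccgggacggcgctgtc
Pes1: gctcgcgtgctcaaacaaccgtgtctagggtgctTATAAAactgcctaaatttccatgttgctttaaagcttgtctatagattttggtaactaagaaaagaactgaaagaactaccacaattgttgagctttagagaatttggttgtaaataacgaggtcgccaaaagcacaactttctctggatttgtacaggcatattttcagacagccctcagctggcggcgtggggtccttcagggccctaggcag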

How the data were processed

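RNA was sequenced from both ends after a stranded total RNA kit, per the labels' protocols. The authors' deposited table gives raw counts for each gene, made with TopHat2 2.1.0 on mm10, per the submitters' processing notes, which also name CASAVA, DESeq2 and R 3.4.1. The sources used here name no gene counter or annotation release and do not say if counting used strand. RPKM values in the same deposited table served for levels between genes and for an alternative fit. Listed gene lengths are as deposited.

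Members and lists were chosen with earlier results of these data known. Symbols were matched to the deposited names, and Cirh1a also to its newer name Utp4 in the promoter table. Counts were fitted with edgeR 4.0.16 and limma 3.58.1 in R 4.3.3. Genes were kept by filterByExpr (minimum count 10, minimum total 15), scaled by TMM and tested with the robust quasi-likelihood test, with sex and group in the model. P-values were adjusted by Benjamini-Hochberg over 20987 genes, with a threshold of 0.05. Standard errors are the absolute log2 fold change over the root of F. Effects within a sex and the sex by group term came from the model with their product. CPM values are TMM-scaled, and 3 counts equal 0.0337 to 0.0455 CPM. The fit was also tested on simulated data.

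Each library came from its own animal, and the closest pair within a group differed beyond sampling noise (chi-square of 16.6 per degree of freedom). Values in every library are given for the 2 members of smallest p in each role, the largest change in each direction, the 2 smallest p of the sex by group term, and Ncl, Npm1, Fbl, Dkc1, Polr1a, Ubtf, Rrn3, Nob1, Bop1 and Gnl3. Imp4 was added after its values were seen. Of each other list, the gene of smallest p is named where none was called. Alternatives were DESeq2 1.42.0, limma-voom, size factors by median of ratios, no filter on low counts, a minimum mean CPM of 1, limma-trend on RPKM with pseudocounts of 0.1 and 1, no sex covariate, the rRNA share as covariate, the rRNA loci left out, 2 libraries left out together and each library left out. Counts of members called within a sex were added to these alternatives after seeing the data.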

Additional observations from a re-analysis of the deposited data

Results flagged for a closer look

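Among the 90 sets of 4 libraries (45 members in each group), 4 held a library far from the other 3, and chance gives such a gap in about 1 group in 20. Polr1a measured 25.0 CPM in GFP 3, below the next GFP library at 34.2 CPM. Rrp12 measured 29.8 CPM in GFP 3, with the nearest GFP library at 41.6 CPM. Polr1d stood at 40.9 CPM in GFP-GR100 3, above the next at 32.7 CPM. Gnl2 measured 47.2 CPM in GFP-GR100 4, under the next at 51.3 CPM. GFP 3 was the library set apart in 2 of the 4 cases.

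Counts at the rRNA loci differed between GFP-GR100 and GFP in opposite directions in the 2 sexes. The male minus female effect on the log2 scale was 3.11 for Yam1, 3.10 for AY036118 and 2.65 for Lars2, and all 3 passed the test of the sex by group term in edgeR (adjusted p = 0.0479, 0.0258 and 9.27e-05). The share of counts there was high in both GFP females and both GFP-GR100 males. Yam1 and AY036118 overlap, so they are not separate results. The library preparation used a total RNA kit, and these counts were not read as a measure of rRNA synthesis. The cause of the difference was not tested.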

How the results depend on the processing

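Neither direction had a member called under any of the 19 alternatives run for the group effect, with smallest adjusted p between 0.0702 (Bysl, rRNA share as covariate) and 0.497 (without GFP-GR100 2). Medians moved on RPKM, where the median of all tested genes shifted to 0.041 and 0.024. With log2(RPKM + 0.1), 2 members above 0 and 0 below it had an unadjusted p under 0.05. The medians there were -0.041 for all members, -0.041 for polymerase I and -0.085 for the small subunit. They were -0.067 for the large subunit and 0.075 for the scaffold and helicase group. With log2(RPKM + 1) they were -0.029, -0.027, -0.071 and -0.060 for the first 4 of these. The snoRNP median was -0.019 without GFP 3 and GFP-GR100 4. Leaving out 1 library in turn gave medians of -0.14 to -0.046 for all members, -0.11 to -0.047 for polymerase I, and -0.13 to -0.025 for the snoRNPs, the last of these without GFP-GR100 4. It also gave medians of -0.031 to 0.048 for the scaffold and helicase group. The medians were -0.19 to -0.071 for the small subunit and -0.18 to -0.049 for the large subunit. Those without GFP 4 were nearest 0 for both subunits and for all members.

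The sex by group term was called for 3 members with no filter (4.22% of all tested genes) and for 2 with DESeq2 (2.76%). Without GFP 3 and GFP-GR100 4 each group kept 1 male, and the term for Bop1 was -0.72. With 1 library left out, its sex and group kept 1 library, and the term for Bop1 ran from -0.97 to -0.63. The count of 6 members called lower within males became 1 on either RPKM scale (1.21 and 1.08% of all tested genes) and 0 with the rRNA share as covariate. It ran from 1 to 4 with 1 female library left out. The cause was not tested.

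Some small fold changes of single genes changed sign. Polr1a was 0.011 under a minimum mean CPM of 1, 0.046 and 0.038 on the RPKM scales, 0.0012 within males, and reached 0.088 without GFP 4 and -0.094 at the other end. Ncl was 4.3e-05 and 0.00014 on the RPKM scales. Rrp9 was 0.082 and Fbl 0.017 without GFP 3 and GFP-GR100 4, and Rrp9 ranged from -0.19 to 0.017 and Npm1 from -0.031 to 0.088 with 1 library left out. Within females, Ubtf was 0.0023, Npm1 -0.076, Bop1 0.089, Rrp9 0.27 and Nob1 0.029.

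No paired analysis was possible because the labels number no animals across groups, so the replicate numbers only name the libraries.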
